A study of Homo sapiens with 3 samples.

Results

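NUMB and 9 genes of Notch signalling were described in the RNA of cells labelled HepG2. The members were NUMB, its paralog NUMBL, the receptors NOTCH1 to NOTCH4, the ligands JAG1, JAG2 and DLL1, and the target HES1. Their rows were taken by gene name, on chromosomes of the main assembly, which gave 10 rows of 39320. The choice of members was made with earlier results of these data known. The study investigated alternative splicing of METTL3, the catalytic subunit of the main RNA adenosine methyltransferase, in liver cancer, and its introduction names NUMB as a gene whose splice forms differ in this cancer. Polyadenylated RNA was sequenced in 3 libraries that the labels give as wild-type HepG2, a long-established cell line from a human liver cancer, and that form 1 condition, so no comparison between conditions was possible. The labels do not say whether the libraries came from separate cultures, so the spread between them may be technical.

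Notch receptors are single-pass membrane proteins that are cut when a ligand on a neighbouring cell pulls on them. The cut releases their intracellular part, which enters the nucleus, joins the DNA-binding protein RBPJ and turns on repressor genes of the HES and HEY families. NUMB is an adaptor protein that is passed unequally to daughter cells and limits Notch signalling by directing the receptor to endocytosis and degradation. In the liver, Notch signalling is best known for the formation of bile ducts, in which JAG1 and NOTCH2 act.

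The deposited row of NUMB covers positions 73275210 to 73458580 of chromosome 14 in GRCh38, a span of 183371 bp on the minus strand. GENCODE v44 lists 28 transcripts for it. Of these, 8 carry a consensus coding region, and they differ in their coding part by only 2 exons, which are either kept or skipped. Both are shown here because they define the forms of these 8 transcripts, which the single value of the gene does not tell apart. Which transcripts that value adds up is not known. The longer exon has 144 bases (chr14:73279281-73279424, minus strand) and extends the proline-rich region of the protein, the part that distinguishes the forms named for liver cancer. It is written 5′ to 3′ with its proline codons in capitals.
NUMB exon of 144 bases: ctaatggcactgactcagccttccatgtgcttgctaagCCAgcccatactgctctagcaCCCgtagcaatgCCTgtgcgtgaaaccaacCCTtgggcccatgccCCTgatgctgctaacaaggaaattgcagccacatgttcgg
The shorter exon has 33 bases (chr14:73316390-73316422, minus strand) and lies in the part that encodes the phosphotyrosine-binding domain, through which NUMB binds its partners. It is shown with 10 bases of intron on each side in lower case and the exon in capitals.
NUMB exon of 33 bases: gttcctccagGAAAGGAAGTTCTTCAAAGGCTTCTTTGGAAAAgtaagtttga

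Both exons hold whole multiples of 3 bases, so keeping or skipping either leaves the reading frame as it is. Of the 47 whole codons in the longer exon, 5 encode proline, a share of 10.6%, against 9.68% of the codons of the longest form. The 33-base exon has 0 proline codons among 11. The 2 exons combine into 4 forms of 651, 640, 603 and 592 aa. The forms of 651 and 640 aa hold the longer exon, and those of 651 and 603 aa hold the shorter one. The deposited tables give 1 value per gene, so the RNA of NUMB was not divided among these forms here.

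**Figure D1:**
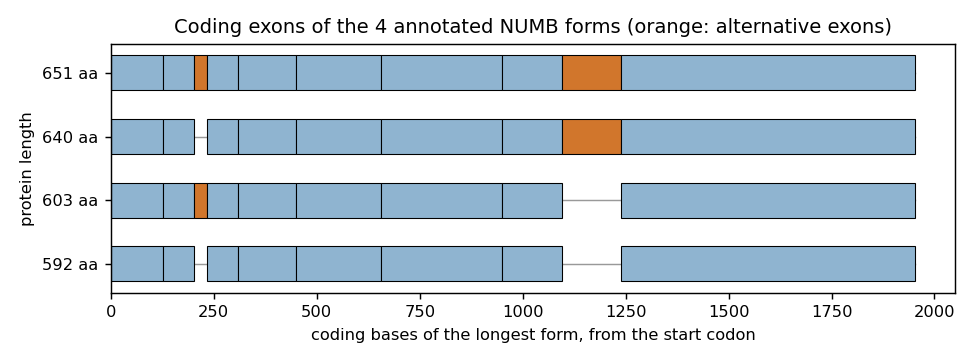
Coding exons of the 4 annotated NUMB forms, drawn to scale along the coding bases of the longest form (x axis, bases), with 1 row per form labelled by protein length in aa. Shared exons are blue, the alternative exons of 33 and 144 bases are orange, and a gap marks an exon that the form skips.

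The tables give coverage, FPKM and TPM, of which TPM was used for levels. Coverage is a read depth that is not scaled for library size. Over which bases of a gene it is averaged is not known here, and its ratio to FPKM differed between genes, as given below. FPKM is fragments scaled for gene length and library size. TPM is the same, brought to nearly equal totals in all libraries. No counts are given, and depth and counting error were not estimated here. The highest coverage per FPKM of a library, a relative measure of depth, was 13.3, 12.8 and 11.5 in replicates 1, 2 and 3. All 8 of the listed hepatocyte genes (ALB, AFP, APOA1, APOB, SERPINA1, TTR, TF and FGB) were below 1 TPM in every library, and 5 of them were listed at 0 in all 3. KRT8 and KRT18, keratins of simple epithelia and of hepatocytes, were at 2610 ± 28.6 and 2017 ± 102 TPM (SD, n = 3), while the other epithelial genes on the list were low, with EPCAM at 0, 0 and 0.0901 TPM and CDH1 at 1.04, 0.980 and 1.05 TPM in replicates 1, 2 and 3. VIM, a mesenchymal gene, was at 694 ± 48.1 TPM (SD, n = 3). These markers go against the label, so it is uncertain that the RNA came from HepG2, and the levels below are those of libraries labelled HepG2. Of 4 endothelial genes and the leukocyte gene PTPRC, all were below 1 TPM in every library, while the macrophage gene CD68, which many other cells also use, was at 9.41 ± 0.965 TPM (SD, n = 3).

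Of the 10 members, 8 had at least 1 TPM in every library, where 33.8% of all rows did, and 7 had at least 10 TPM in every library, where 20.7% did. None of the members was listed at 0 in all 3 libraries, against 40.7% of all rows. The 2 members below 1 TPM were the receptor NOTCH4 and the ligand DLL1.

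NUMB had 27.8, 25.9 and 25.2 TPM in replicates 1, 2 and 3, a mean of 26.3 ± 1.37 TPM (SD, n = 3). Of 13753 genes whose mean reached 1 TPM, 64.0% were below NUMB, and its percentile was between 63.3 and 64.5 in the single libraries. Its coverage was 165, 151 and 131. NUMBL, which encodes a similar adaptor best known from neural progenitors, had 36.4, 32.8 and 32.3 TPM, a mean of 33.8 ± 2.24 TPM (SD, n = 3). NUMBL was the higher of the pair in all 3 libraries, and its lowest value exceeded the highest value of NUMB. The ratio of NUMB to NUMBL was 0.764, 0.788 and 0.779, and the log2 ratio on the log2(TPM + 1) scale was -0.35 ± 0.02 (SD, n = 3). By coverage the log2 ratio was -0.38.

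The 3 genes whose levels lay nearest to NUMB in all libraries were PPP4R1, KDM5B and ARHGEF7, whose log2(TPM + 1) differed from that of NUMB by at most 0.009, 0.015 and 0.019 in any of the 3 libraries. This measures a like level in 3 libraries of 1 condition.

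Among the receptors, NOTCH2 was the most abundant, with 77.2, 70.0 and 65.1 TPM in replicates 1, 2 and 3 and a mean of 70.8 ± 6.08 TPM (SD, n = 3). Its lowest value was above the highest value of every other member. NOTCH1, the receptor best known from T-cell leukaemia, had 22.2, 21.0 and 19.8 TPM, a mean of 21.0 ± 1.20 TPM (SD, n = 3). NOTCH3, which is known from smooth muscle of small arteries, had 14.4, 14.0 and 13.3 TPM, a mean of 13.9 ± 0.564 TPM (SD, n = 3). The 3 receptors did not overlap in any pair, and their order was the same in each library. NOTCH4, which is found mainly in endothelium, was detected in replicates 1 and 2, at 0.0277 and 0.0484 TPM, and listed at 0 in replicate 3. The 4 receptors added up to 114, 105 and 98.1 TPM, of which NOTCH2 made up 67.9%, 66.6% and 66.3%.

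NOTCH2 was 3.48, 3.33 and 3.29 times as high as NOTCH1, and 5.38, 4.99 and 4.91 times as high as NOTCH3, in replicates 1, 2 and 3. NOTCH1 was 1.55, 1.50 and 1.49 times as high as NOTCH3. On the log2(TPM + 1) scale, the mean log2 ratio was 1.70 ± 0.04 for NOTCH2 to NOTCH1, 2.27 ± 0.07 for NOTCH2 to NOTCH3 and 0.56 ± 0.03 for NOTCH1 to NOTCH3 (SD, n = 3).

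NOTCH2 has partial copies on chromosome 1, the NOTCH2NL genes, which arose by duplication of its start. NOTCH2NLA was at 11.0 ± 0.292 TPM, NOTCH2NLB at 9.79 ± 0.429 TPM and NOTCH2NLC at 11.2 ± 1.41 TPM (SD, n = 3), while NOTCH2NLR was below 1 TPM in every library. The coverage of NOTCH2NLA, NOTCH2NLB and NOTCH2NLC was 65.5 ± 4.03, 26.5 ± 2.65 and 4.96 ± 0.545 (SD, n = 3). TPM and coverage thus ranked these copies differently, with NOTCH2NLC the lowest of them by coverage. In the GENCODE v44 transcripts, 101 of the 11276 windows of 150 bases in the reference transcript of NOTCH2, or 0.896%, occurred unchanged in another gene, and these were in NOTCH2NLA, NOTCH2NLB and NOTCH2NLC and in NBPF10, NBPF14 and 1 unnamed gene. With TPM and coverage ranking them differently, the values of the NOTCH2NL genes are uncertain. How alike these genes are to each other was not compared, and its part in their values was not tested. Of the other members, JAG2 shared 5.71% and NUMB 2.03% of such windows with 1 unnamed gene each, and the remaining 7 shared 0.

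Among the ligands, JAG2 was the most abundant member, with 47.9, 49.9 and 48.0 TPM in replicates 1, 2 and 3 and a mean of 48.6 ± 1.11 TPM (SD, n = 3). JAG1, the ligand that is mutated in Alagille syndrome, had 7.79, 7.84 and 6.92 TPM, a mean of 7.52 ± 0.517 TPM (SD, n = 3). JAG2 was higher in all 3 libraries and the ranges were far apart, with a log2 ratio of JAG1 to JAG2 of -2.54 ± 0.08 on the log2(TPM + 1) scale (SD, n = 3). The ratio of their TPM was 0.162, 0.157 and 0.144. DLL1, a ligand of the Delta type, was listed at 0 in replicates 1 and 3 and at 0.0410 TPM in replicate 2, so no fold against it is given. The log2 ratio of JAG1 to DLL1 was 3.07 ± 0.08 (SD, n = 3) with a pseudocount of 1 and 6.08 with a pseudocount of 0.1, and its size is set by the pseudocount. JAG2 made up 86.0%, 86.4% and 87.4% of the TPM of JAG1, JAG2 and DLL1 together.

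A sign-flip permutation test over the 3 libraries was run on the 6 ratios named above. Each ratio had p = 0.25 in this two-sided exact test and 0.25 when adjusted over the 6 by Benjamini-Hochberg, and 3 libraries cannot give a smaller p. Each ratio had 1 direction in 3 of 3 libraries.

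HES1, a basic helix-loop-helix repressor and the classical target of Notch, had 25.7, 25.0 and 23.5 TPM in replicates 1, 2 and 3, a mean of 24.7 ± 1.11 TPM (SD, n = 3). It lies on the plus strand of chromosome 3 from 194136148 to 194138732. RBPJ binds DNA at a core that includes TGGGAA, and the 120 bases before the RefSeq start site of HES1 (GRCh38.p14, chr3:194136028-194136147, plus strand) are shown with each match in capitals because they hold this core in 2 places.
HES1 promoter: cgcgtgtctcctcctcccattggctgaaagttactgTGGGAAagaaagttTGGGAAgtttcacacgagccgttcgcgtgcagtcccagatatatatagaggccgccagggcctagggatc
These exact matches begin 84 and 70 bases before the start site, do not overlap and have the same orientation. Sites of RBPJ with another sequence were not searched for and are not marked. Whether RBPJ binds at either match was not tested. At least 1 match to TGGGAA or its complement TTCCCA occurred in the 250 bases before the start site of 20.8% of 35116 RefSeq promoters, and 2 or more occurred in 2.90%. Of the other members with a promoter in the RefSeq table, NUMB, NUMBL, the 4 receptors, JAG1 and JAG2, 0 held a match.

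In the order of mean TPM, the members were NOTCH2, JAG2, NUMBL, NUMB, HES1, NOTCH1, NOTCH3, JAG1, NOTCH4 and DLL1. Of the 9 pairs of neighbours in this order, 2 had overlapping ranges. NUMB and HES1 overlapped, with the lowest value of NUMB at 25.2 TPM and the highest value of HES1 at 25.7 TPM, although NUMB was the higher in each of 3 libraries. NOTCH4 and DLL1 also overlapped, both within 0.0484 TPM of 0. Among the 8 members with at least 1 TPM in every library, the ranges did not overlap in 27 of 28 pairs, where 94.6% of all such pairs of genes did not. The order by mean coverage was the same from NOTCH2 to DLL1, with 149 ± 17.2 for NUMB and 148 ± 16.6 for HES1 (SD, n = 3). By coverage, however, the range of NOTCH1 (109 to 139) overlapped those of NUMB (131 to 165) and HES1 (129 to 161), which it did not by TPM.

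**Figure D2:**
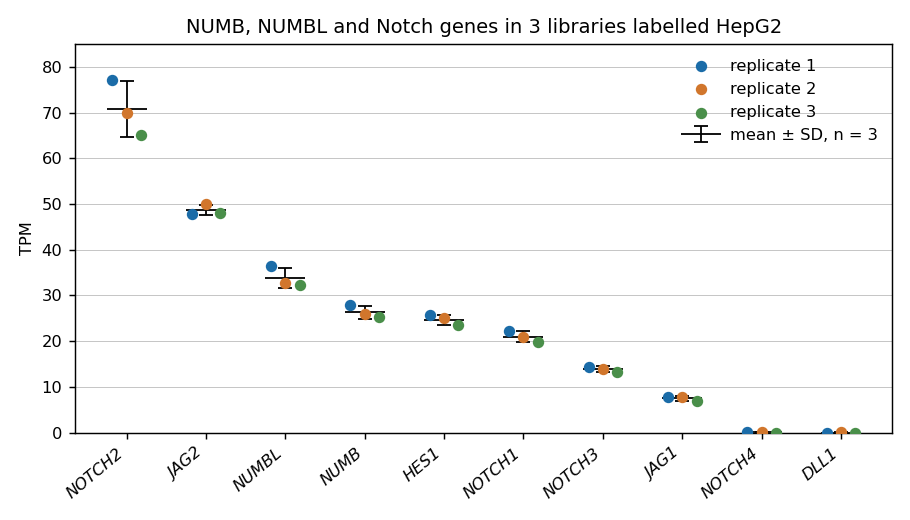
TPM (y axis) of the 10 members in replicates 1, 2 and 3, with coloured points for the libraries and black bars for the mean ± SD (n = 3). The points of NOTCH2 are above those of every other gene, those of NUMB and HES1 overlap, and those of NOTCH4 and DLL1 are at or near 0.

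The coefficient of variation of the 8 members with at least 1 TPM in every library ranged from 2.28% in JAG2 to 8.59% in NOTCH2, with a median of 5.47%, against a median of 5.95% over the 13307 genes at this level. Of these 8 members, 6 were highest in replicate 1 and lowest in replicate 3, against 36.1% of those genes. The exceptions were JAG1 and JAG2, which were highest in replicate 2. The median log2 ratio of replicate 3 to replicate 1 was -0.15 over the 8 members and -0.09 over the 13307 genes. Replicate 3 also had the lowest coverage per FPKM of the libraries, and the part of depth in these differences was not tested.

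The wider pathway was described by a list of 74 genes that includes the members. At least 1 TPM was reached in every library by 65 of them, of which 57 were among the 64 that are not members, and at least 10 TPM by 43. Over all rows, the shares were 33.8% at 1 TPM and 20.7% at 10 TPM, and the counts by role that follow are to be read beside them. The median of the mean TPM was 16.4 over all 74 genes of the list, those near 0 included, beside 15.4 over the 13753 genes whose mean reached 1 TPM.

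Of the 7 ligands on the list, 4 were at or above 1 TPM in every library. DNER, an atypical ligand known from neurons, was the most abundant of them at 73.1, 61.3 and 59.5 TPM in replicates 1, 2 and 3, a mean of 64.6 ± 7.40 TPM (SD, n = 3), and made up 55.2%, 49.9% and 50.6% of the ligand TPM. DLL3, a ligand that acts within the cell, was at 3.45 ± 0.264 TPM (SD, n = 3). DLL4, the ligand of endothelium, and DLK1, an atypical ligand of fetal tissues, were below 0.1 TPM in every library.

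Receptor glycosylation genes all passed 1 TPM. POFUT1, which adds fucose to the receptors, was at 61.4 ± 2.47 TPM (SD, n = 3). Of the fringe enzymes, which extend that fucose, RFNG was at 11.7 ± 0.535, LFNG at 3.41 ± 0.390 and MFNG at 1.90 ± 0.150 TPM (SD, n = 3). By coverage the order of LFNG and MFNG was reversed, at 5.27 ± 0.981 and 11.2 ± 0.940 (SD, n = 3).

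All 9 genes of the proteases that process the receptors passed 1 TPM in every library. FURIN, which cuts the receptor on its way to the surface, was at 63.5 ± 3.30 TPM, and ADAM10, which makes the cut that ligands trigger, was at 34.9 ± 3.07 TPM against 10.2 ± 0.442 TPM for ADAM17 (SD, n = 3). Of the subunits of gamma-secretase, which frees the intracellular part, APH1A was at 130 ± 5.63, NCSTN at 48.7 ± 1.58, PSENEN at 40.4 ± 1.29, PSEN2 at 18.2 ± 1.39 and APH1B at 4.72 ± 0.476 TPM (SD, n = 3). PSEN2, a catalytic subunit, was below the accessory subunits except APH1B by TPM and by coverage, while NCSTN and PSENEN overlapped by coverage.

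All 12 genes of the nuclear complex and its corepressors passed 1 TPM. RBPJ was at 25.4, 24.2 and 24.2 TPM in replicates 1, 2 and 3. Of its coactivators, MAML1 was at 20.8 ± 1.97 TPM, above MAML3 at 5.35 ± 0.273 and MAML2 at 3.45 ± 0.221 TPM (SD, n = 3). The corepressor SPEN was at 33.1 ± 2.33 TPM (SD, n = 3).

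Of the 7 targets on the list, 5 passed 1 TPM in every library and 3 passed 10 TPM. HES4, a relative of HES1, was at 104, 108 and 90.3 TPM, a mean of 101 ± 9.32 TPM (SD, n = 3). NRARP, which limits Notch by feedback, was at 31.0, 27.3 and 25.9 TPM. HEY2 and HEY1 were at 2.42 ± 0.209 and 2.12 ± 0.133 TPM, and by coverage HEY1 was the higher (SD, n = 3). HES5 was at 0.681, 0.349 and 0.287 TPM, and HEYL was listed at 0 in all 3 libraries. A promoter was given in the RefSeq table for 6 of these genes. The core TGGGAA or its complement occurred in 2 places before HES1, HES5 and HEYL and in 1 place before HES4 and HEY2, and in 0 places before NRARP. Of all RefSeq promoters, 20.8% held at least 1 match and 2.90% held 2 or more. Whether the core bears on the levels of these genes was not tested.

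Of the 9 ubiquitin ligases, 8 passed 1 TPM. ITCH, which marks Notch and acts with NUMB, was at 24.6 ± 1.50 TPM, and MIB2 and MIB1, which act on the ligands, were at 12.9 ± 0.166 and 8.48 ± 0.390 TPM (SD, n = 3). The coverage of ITCH, MIB2 and MIB1 was 29.2 ± 3.74, 30.8 ± 2.49 and 20.5 ± 2.41 (SD, n = 3), so ITCH was not above MIB2 by mean coverage. DTX1 was listed at 0 in all 3 libraries. Among the partners of NUMB, AP2A1, a subunit of the endocytic adaptor that NUMB binds, was at 80.6 ± 5.56 TPM, PRKCI, a polarity kinase, was at 32.1 ± 1.45 TPM and MDM2, the ubiquitin ligase of p53, was at 21.4 ± 1.97 TPM (SD, n = 3). LNX1, a ligase that acts on NUMB, was below 1 TPM in every library, while its relative LNX2 was at 5.20 ± 0.812 TPM (SD, n = 3). The 6 genes listed for their part in splicing of the longer NUMB exon all passed 10 TPM. The RNA-binding protein RBM10 was the highest at 89.1 ± 1.92 TPM, and its relatives RBM6 and RBM5 were at 37.3 ± 1.73 and 31.4 ± 0.449 TPM (SD, n = 3). By coverage RBM6 was below RBM5, at 26.1 ± 2.41 and 129 ± 11.7 (SD, n = 3).

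**Figure D3:**
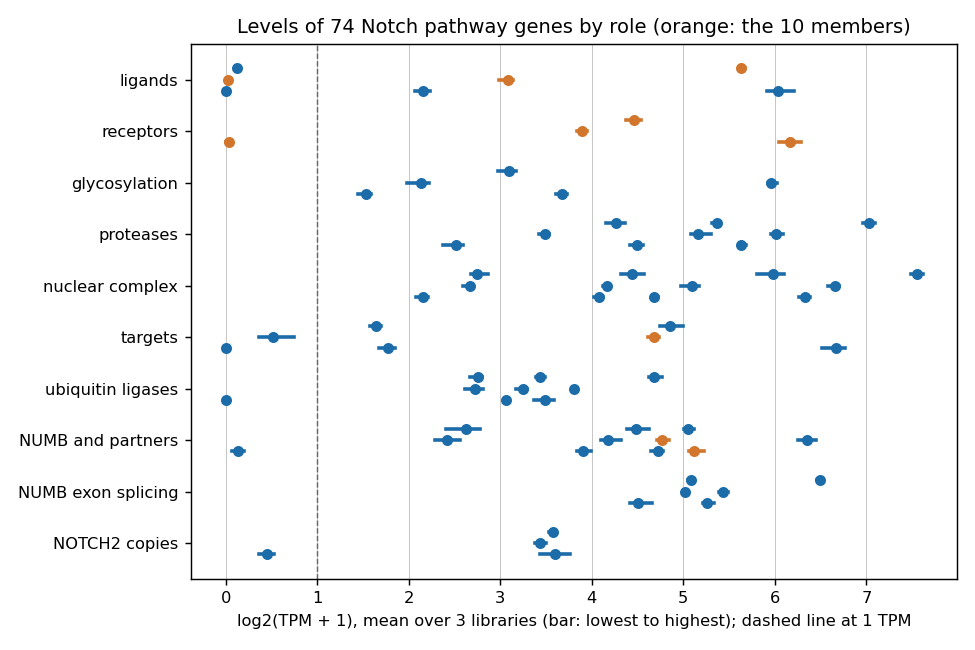
Levels of the 74 genes of the Notch pathway list as log2(TPM + 1) (x axis), in rows by role, with points for the mean over 3 libraries and bars from the lowest to the highest library. Members are orange, other genes are blue, and the dashed line marks 1 TPM. The genes to the left of it include NOTCH4, DLL1, HES5, HEYL and DTX1.

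TPM and coverage did not rank all of these genes alike. RBPJ and HES1 had a mean of 24.6 and 24.7 TPM, but their coverage was 12.0 ± 1.58 and 148 ± 16.6 (SD, n = 3). Coverage per FPKM was compared with the highest ratio in the same library, which is 1 for HES1 and between 0.0786 and 0.0863 for RBPJ. For the 8 members with at least 1 TPM, the lowest relative ratio was 0.924, in NOTCH3, and 0 of 8 were below 0.5. Of the 65 pathway genes at this level, 20 were below 0.5 in every library, where 27.6% of all genes at this level were. Those with the lowest ratios were SRPK2, a kinase of splicing factors, at 0.0382 to 0.0383 and RBFOX2, a splicing regulator, at 0.0574 to 0.0591. What sets this ratio was not tested, and levels of these genes relative to the members are less certain than those between members.

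**Figure D4:**
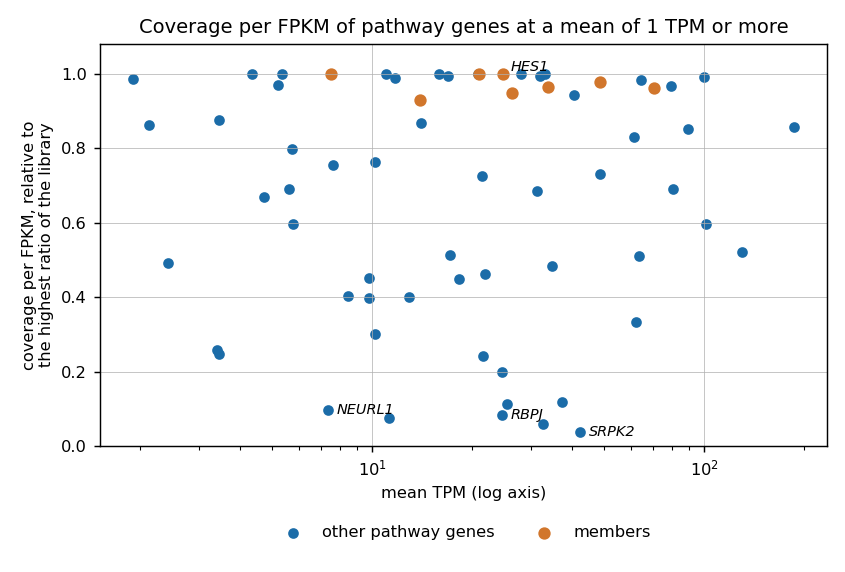
Coverage per FPKM relative to the highest ratio of the library (y axis, middle of the lowest and highest library) against mean TPM (x axis, log axis) for pathway genes at a mean of at least 1 TPM. All 8 members shown (orange) are at or above 0.924, while RBPJ, NEURL1 and SRPK2 (blue) are below 0.1.

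Rows that overlap a member were compared with it, because the strand setting of the quantification is not given in the sources used here. FAM120B, on the opposite strand, overlaps 376 bp of DLL1 exons and had 9.31 ± 0.680 TPM (SD, n = 3), while DLL1 was at or near 0. GPSM3 overlaps 681 bp of NOTCH4 exons and was below 1 TPM in every library, as NOTCH4 was. The microRNA row MIR6765, of 87 bp within an intron of JAG2, had 43.4, 55.4 and 53.4 TPM, close to the 47.9, 49.9 and 48.0 TPM of JAG2, and the reads behind either value are not known. MIR4673 in NOTCH1 and MIR6795 in NOTCH3 had means of 0.693 and 0.683 TPM, and MIR6870 in JAG1 was listed at 0. No row overlapped NUMB, NUMBL, NOTCH2 or HES1. The tables also hold 6 rows of NOTCH4 and 1 row of DLL1 on alternate references, and all 7 were at 0 in every library.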

How the data were processed

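RNA-seq libraries labelled wild-type HepG2, 3 in number, made up 1 condition. Paired-end reads of 150 bp were filtered by the authors (FastQC 0.11.8, Trim Galore 0.6.2) and mapped to GRCh38 (STAR 2.6.1a), and the authors deposited 1 table of genes per library. The submitters' processing notes also name StringTie, without a version, and the annotation and strand setting are not given in the sources used here. The deposited coverage signal gives a read depth without scaling between libraries, and over which bases of a gene it is averaged is not known here. The FPKM deposited by the authors is scaled for length and library size, and the TPM deposited by the authors has nearly equal totals between libraries. No counts are given, so precision is the SD over 3 libraries.

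Rows of the 3 tables were matched on gene, strand and position, and the 39320 on main chromosomes were used. TPM was used as deposited, with a limit of 1 TPM for expressed genes. For 6 pairs of members, log2 ratios of TPM (pseudocount 1) were tested over libraries by exact two-sided sign flips, a permutation test, with Benjamini-Hochberg adjustment. The genes named were the members, a Notch pathway list, the 3 genes nearest to NUMB in level, overlapping rows and marker genes. Some listed genes are counted but not reported here by name. Members and lists were chosen with earlier results of these data known. Of the 10 member rows, 5 had the start and end of RefSeq (GRCh38.p14), and the others differed by at most 48 bp. Exons were taken from GENCODE v44 and read from GRCh38. Windows of 150 bases were searched, on the transcribed strand and without mismatches, in 252835 transcripts. The coefficient of variation was tested on simulated data. Range overlap, sign flips, the Benjamini-Hochberg adjustment and percentiles were tested on small sets of made-up values. Other calculations were not tested in this way. Python 3.11.15, numpy 2.4.6, pandas 2.3.3 and matplotlib 3.10.9 were used. Alternatives were other scalings, pseudocounts, limits and units, and leaving out each replicate.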

Additional observations from a re-analysis of the deposited data

How the results depend on the processing

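With mitochondrially encoded genes left out of the scaling, mean TPM rose to 88.7 for NOTCH2, 61.0 for JAG2, 42.4 for NUMBL, 32.9 for NUMB, 31.0 for HES1, 26.3 for NOTCH1, 17.4 for NOTCH3 and 9.43 for JAG1. It removes a share of TPM from every library, so it raises all other genes by nearly 1 factor. The percentile of NUMB moved from 64.0 to 73.5 when the limit on the mean was lowered to 0.1 TPM, to 87.4 without a limit and to 72.5 by coverage. The pathway genes at or above the limit numbered 65, and 43 with a limit of 10 TPM. The direction of all 6 ratios was the same under a pseudocount of 0.1, FPKM and coverage, and with each replicate left out. The 2 pseudocounts gave 3.07 and 6.08 for JAG1 to DLL1. With each replicate left out, the mean of NUMB ranged from 25.5 to 26.8 TPM, that of NOTCH2 from 67.5 to 73.6 TPM and that of DLL1 from 0 to 0.0205 TPM, which rests on replicate 2 alone. NOTCH4 ranged from 0.0138 to 0.0380 TPM. Such ranges are narrow by construction, because omitting 1 value in 3 always shifts a mean by less than its SD. No paired analysis was possible because all libraries belong to 1 condition. Depth, which was not estimated, limits NOTCH4, DLL1 and every gene at 0, for which no detection limit was set.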
